A study of Mus musculus with 8 samples.

Results

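Selenoprotein genes were described in whole kidneys of mice with and without the transcription factor c-Maf. They were Gpx3, Gpx1, Gpx4, Msrb1, Txnrd2, Selenop, Selenow, Selenof, Sephs2, and Dio1, which are 10 of the 55367 gene names counted by RNA-Seq. The genes were picked by name, as selenoproteins and selenium handling genes, by someone who knew earlier results of the same comparison, so their differences between genotypes are given below as descriptions, with no P values. Where members are counted past a threshold, the count stands beside the share of all genes and supports nothing about them. The annotation marks 24 mouse genes as selenoprotein genes, and the 14 that are not among the 10 were kept as a separate list.

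Total RNA depleted of ribosomal RNA was sequenced from 8 whole kidney samples of C57BL/6J mice, each mouse being 1 replicate with a labelled age of 8 weeks. Of these, 4 are labelled Maf conditional KO and the other 4 Maf flox/flox, numbered 1 to 4 in each group. Both groups carry loxP-flanked (floxed) c-Maf and both received tamoxifen, 75 mg/kg for 5 consecutive days by the study's methods, with analysis 10 days after it. The methods give 8 weeks as the age at injection, so the labelled age may be that at injection. The Maf conditional KO mice also carry a tamoxifen-activated Cre recombinase under the CAG promoter, which is active in most cell types, so that deletion was not restricted to the kidney or to one kind of tubule cell, and the Maf flox/flox mice carry no Cre.

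Selenoproteins contain selenocysteine, an amino acid that holds selenium in place of the sulfur of cysteine. Their mRNAs spell it with TGA (UGA in the RNA), which is otherwise a stop codon, and a stem-loop in the 3′ untranslated region, the SECIS element, directs the ribosome to insert selenocysteine there. In the kidney, the cells of the proximal tubule are known to make the secreted glutathione peroxidase of blood plasma, encoded by Gpx3, and to take up filtered selenoprotein P, the selenium carrier encoded by Selenop.

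The selenocysteine codons were read from the GENCODE M21 transcript sequences at the positions that its annotation of GRCm38 marks. The codon of Gpx3 is codon 73 of 226 and lies in exon 2 of its transcript, at chr11:54907256-54907258 on the plus strand. It is codon 47 of 201 in Gpx1 (chr9:108339451-108339453, plus strand, exon 1), codon 73 of 197 in Gpx4 (chr10:80054737-80054739, plus strand, exon 3), and codon 95 of 116 in Msrb1 (chr17:24740158-24740160, plus strand, exon 3). The coding sequences below show the mRNA strand around this codon in capitals, for the genes whose levels are compared most closely: the 3 with no overlap between genotypes, Gpx4 as a relative of Gpx3 and Gpx1, Selenop and Dio1, which separated by Xist counts, and Sephs2, which makes the selenium donor.
Gpx3: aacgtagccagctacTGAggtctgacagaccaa
Gpx1: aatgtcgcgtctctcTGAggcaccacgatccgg
Gpx4: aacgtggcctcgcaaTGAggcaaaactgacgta
Msrb1: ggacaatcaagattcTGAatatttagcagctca
Selenop, first of 10: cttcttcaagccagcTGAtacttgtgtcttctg
Sephs2: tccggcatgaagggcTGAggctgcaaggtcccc
Dio1: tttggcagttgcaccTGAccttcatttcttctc

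Selenop is the only member with more than 1 annotated selenocysteine codon. Its 10 codons run from codon 59 to codon 377 of 380, and all but the first lie in exon 5 (chr15, plus strand). The codon of Sephs2 is codon 63 of 452 (chr7:127273731-127273733, minus strand), and that of Dio1 is codon 126 of 257 (chr4:107297700-107297702, minus strand). In Txnrd2 it is codon 526 of 527, the last but one. The codon after the first TGA begins with gg in 6 of the 10 members, being ggc in 5 (Gpx1, Gpx4, Selenow, Sephs2, and Txnrd2) and ggt in Gpx3. The 8 listed relatives of these enzymes that are not annotated as selenoproteins, such as Gpx6 and Msrb2, have 0 TGA codons in frame.

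The samples were compared with their labels first. Maf was 9.06, 34.5, 29.6, and 10.1 CPM (counts scaled to a common library size with TMM factors) in the Maf conditional KO mice and 305.4 to 379.9 CPM in the Maf flox/flox mice, a log2 fold change of -4.05 (SE 0.512, adjusted P = 0.0115, edgeR's quasi-likelihood test). Libraries held 16649129 to 22990257 counts, of which mitochondrial genes took 17.1% to 32.3%, with the highest share in Maf conditional KO mouse 1 and the next, 25.5%, in Maf flox/flox mouse 4. The RNA protocol in the labels names the liver, whereas the tissue label is whole kidney. The 10 hepatocyte marker genes summed to 32.7 to 58.4 CPM per mouse, with Ahsg at 0 counts in all 8 mice and Tat at no more than 0.111 CPM, while 16 proximal tubule markers summed to 17628 to 27638 CPM. Xist, the RNA made from the inactive X chromosome, had 2 counts in Maf conditional KO mouse 1, 6 in Maf flox/flox mouse 3, and 22 in Maf flox/flox mouse 4, against 17618 to 22387 in the other 5 mice. The labels do not state the sex of the mice, so 2 further fits of genotype, with Xist as a covariate and among the 5 mice with high Xist counts, are given for the members and, where they change a call, for the other genes described, and the part that this difference played was not tested.

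Across all genes, 318 of the 20149 tested fell in Maf conditional KO kidneys, which is 1.58% of them, and 118 rose, which is 0.586% (adjusted P under 0.05, edgeR's quasi-likelihood test). All 4 Maf conditional KO mice lay below all 4 Maf flox/flox mice in 5.62% of the tested genes and above them in 4.17%. At an unadjusted P under 0.05, 7.44% were lower and 6.58% higher. All 10 members passed the filter on low counts. By the same threshold 2 of them were lower, Gpx3 and Gpx1, and 0 were higher, while Msrb1 missed it here and was counted as lower under 6 of 19 alternatives. The groups did not overlap in Gpx3, Gpx1, and Msrb1, with the Maf conditional KO mice below, and overlapped in the other 7. The median log2 fold change of the members was -0.14, beside 0.00 over all tested genes. Nothing about selenoproteins as a class can be read from these counts, since the members were chosen with the comparison in view.

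**Figure D1:**
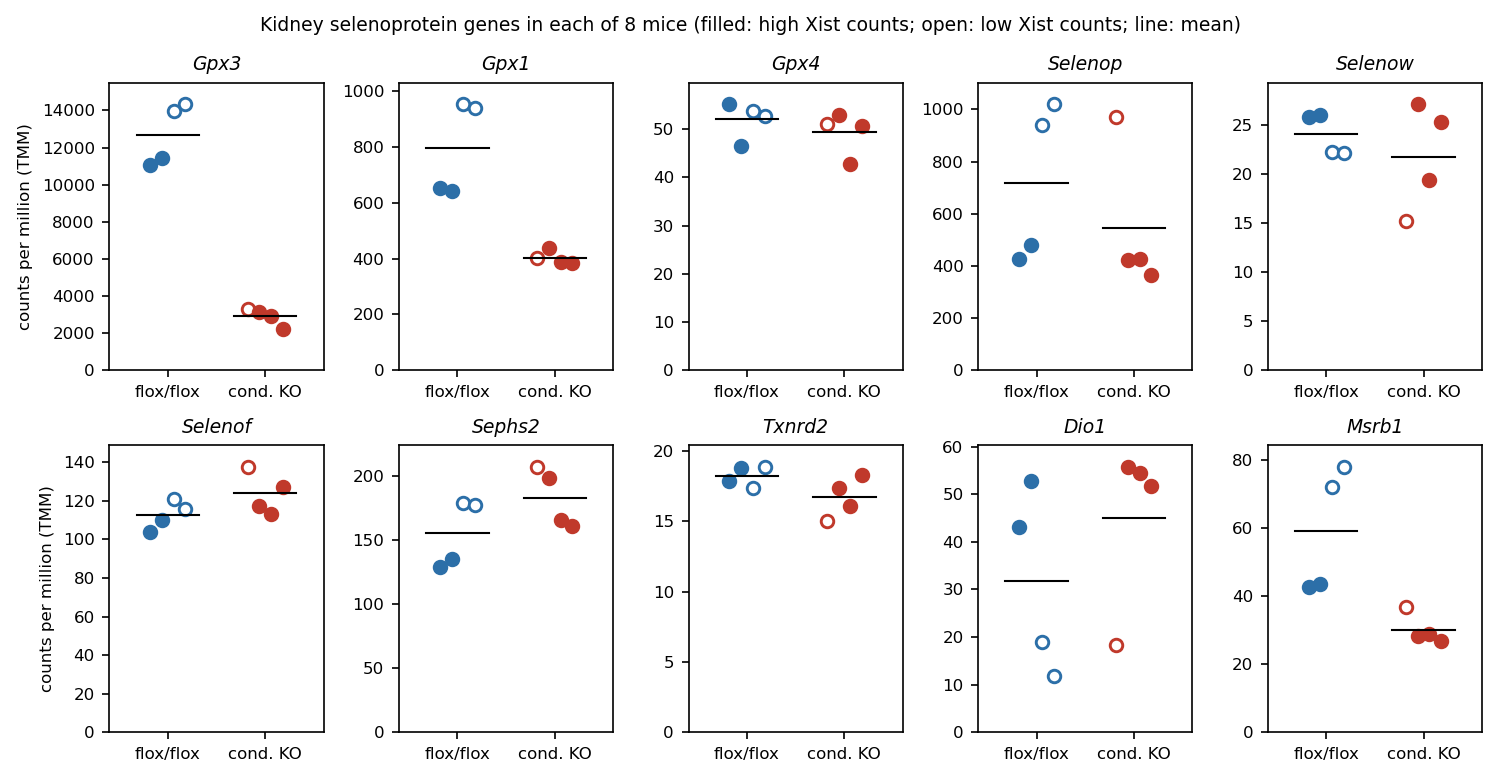
Each panel plots 1 gene's TMM-scaled CPM (vertical axis, from 0) in the 4 Maf flox/flox mice (blue) and the 4 Maf conditional KO mice (red), with the group mean as a line. Filled points are the 5 mice with high Xist counts and open points the 3 with low counts. Gpx3, Gpx1, and Msrb1 separate by genotype, while Selenop and Dio1 separate by Xist.

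Gpx3 encodes the secreted glutathione peroxidase, which reduces peroxides in plasma and other extracellular fluid (chr11:54902453-54910377, plus strand, GRCm38). Its level was 11044, 11430, 13988, and 14335 CPM in Maf flox/flox mice 1 to 4. In Maf conditional KO mice 1 to 4 it was 3292, 3156, 2925, and 2216 CPM. The lowest Maf flox/flox value was more than 3 times the highest Maf conditional KO value, and the group means of 12699 ± 1702 and 2897 ± 478.8 CPM (SD, n = 4 per genotype) put Maf conditional KO at 22.8% of Maf flox/flox. As a log2 fold change, Maf conditional KO minus Maf flox/flox here and throughout, this is -2.13 (SE 0.151). Within each genotype, the mice with low Xist counts had the higher values, and with Xist as a covariate the log2 fold change was -2.07 (SE 0.111), against -2.02 (SE 0.131) among the 5 mice with high Xist counts.

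Gpx3 was among the most abundant RNAs of these kidneys. It took 1.2% to 1.35% of all counts in the Maf flox/flox mice and ranked 2, 2, 3, and 3 among genes that are not mitochondrial. In the Maf conditional KO mice it took 0.246% to 0.325% and ranked 10, 9, 9, and 12. The depth behind these values was large, with 40929 to 275675 reads on the gene per mouse, and 0.276% of its 36-base sequences occur in another gene, Gpx5. A difference in Gpx3 per mouse can come from fewer cells that make it or from less of its RNA per cell, and in whole kidney these cannot be told apart.

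Several markers of the proximal tubule were lower together with Gpx3. All 16 had a negative log2 fold change, and 6 fell by edgeR's test at an adjusted P under 0.05: Gatm (log2 fold change -3.78, adjusted P = 0.0191), Slc5a2 (-3.71, adjusted P = 0.0101), Ass1 (-2.54, adjusted P = 2.42e-05), Slc5a12 (-1.71, adjusted P = 0.000349), Slc34a1 (-1.23, adjusted P = 0.000217), and Slc4a4 (-0.99, adjusted P = 0.000113). With Xist as a covariate all 6 passed again, and among the 5 mice with high Xist counts 5 did, with Gatm at -3.47 (adjusted P = 0.113, edgeR). Their sum was 17628 to 19988 CPM in Maf conditional KO and 23120 to 27638 CPM in Maf flox/flox mice, so that the groups did not overlap. At an unadjusted P under 0.05, 10 of the 16 were lower. The other 10 did not pass the adjusted test. The largest differences among them were in Slc22a8 and Slc13a3, whose groups did not overlap. Slc22a8 was at -1.07 (SE 0.634), at -1.70 (SE 0.507, adjusted P = 0.142, edgeR) with Xist as a covariate, and at -0.97 (SE 0.0904, adjusted P = 1.1e-05, edgeR) among the mice with high Xist counts. Slc13a3 was at -0.87 (SE 0.21, adjusted P = 0.0763, edgeR) and passed both with the covariate (-1.03, adjusted P = 3.36e-06) and among the mice with high counts (-0.85, adjusted P = 1.25e-05). Smaller differences were those of Fbp1 at -0.24 (SE 0.0982), Hnf4a at -0.20 (SE 0.0984), and Cubn at -0.03 (SE 0.0922). Of 10 markers of the thick limb, the distal tubule, and the collecting duct, 0 passed the test by edgeR, and 1 had an unadjusted P under 0.05. Of 7 endothelial markers 1 fell (Kdr, -0.37, adjusted P = 0.045, edgeR's test, and -0.33 in the 5 mice with high Xist counts, adjusted P = 0.0534), and of 7 macrophage markers 0 passed edgeR's test, with 2 higher at an unadjusted P under 0.05 and sums of 107.9 to 117.9 CPM in Maf conditional KO and 92.5 to 102.3 CPM in Maf flox/flox mice. The paper reports Slc5a2 (Sglt2) as directly regulated by c-Maf, so its level here is not a measure of tubule cells alone. The part of these cell types in the Gpx3 difference was not tested.

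Gpx1 encodes the cytosolic glutathione peroxidase found in most cells (chr9:108338903-108340343, plus strand). It was measured at 652.0, 642.2, 953.7, and 940.4 CPM in Maf flox/flox mice 1 to 4. The Maf conditional KO values were 403.6, 436.5, 388.4, and 385.5 CPM. The groups did not overlap, and they averaged 797.1 ± 173.3 and 403.5 ± 23.4 CPM (SD, n = 4 per genotype). This gave a log2 fold change of -0.98 (SE 0.141). The larger spread of the Maf flox/flox mice followed Xist, the 2 mice with low counts being the 2 highest, and the log2 fold change was -0.90 (SE 0.105) with Xist as a covariate and -0.68 (SE 0.0859) among the 5 mice with high Xist counts.

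Gpx4 encodes the glutathione peroxidase that reduces lipid peroxides in membranes (chr10:80047166-80056439, plus strand). It ranged from 46.5 to 55.2 CPM in Maf flox/flox and from 42.9 to 52.9 CPM in Maf conditional KO mice, and its log2 fold change was -0.08 (SE 0.0912), with -0.06 in both Xist fits (SE 0.0859 and 0.109). The 3 glutathione peroxidases thus lay at log2 fold changes of -2.13, -0.98, and -0.08. The value of Gpx4 is uncertain in its level, since 37.6% of its 36-base sequences also occur in the transcripts of other genes, chiefly the pseudogene Gpx4-ps2, and reads that align to several places were left out of the counts.

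Msrb1 encodes methionine sulfoxide reductase B1, which repairs oxidized methionine (chr17:24736642-24742778, plus strand). Its level was 42.7, 43.6, 72.2, and 78.2 CPM in Maf flox/flox mice 1 to 4 and 36.9, 28.3, 28.8, and 26.9 CPM in Maf conditional KO mice 1 to 4. The groups did not overlap, but the gap between them, from 36.9 to 42.7 CPM, was smaller than the range of the Maf flox/flox mice. The log2 fold change was -0.97 (SE 0.217), close to that of Gpx1, and the SE was larger. As in Gpx3, the mice with low Xist counts were the higher ones within each genotype. The log2 fold change was -0.82 (SE 0.101) with Xist as a covariate and -0.63 (SE 0.0951) among the 5 mice with high Xist counts.

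Txnrd2 encodes the mitochondrial thioredoxin reductase, which keeps thioredoxin reduced (chr16:18426384-18479073, plus strand). It was low, at 17.4 to 18.9 CPM in Maf flox/flox and 15 to 18.3 CPM in Maf conditional KO mice, with a log2 fold change of -0.13 (SE 0.1). The Xist fits, first with the covariate and then among the mice with high counts, gave -0.15 (SE 0.101) and -0.09 (SE 0.125). Selenow, a small selenoprotein with a thioredoxin-like fold (chr7:15917208-15922402, minus strand), ranged from 22.1 to 26 CPM in Maf flox/flox and from 15.2 to 27.1 CPM in Maf conditional KO mice. Its log2 fold change was -0.14 (SE 0.163), with -0.24 (SE 0.116) and -0.12 (SE 0.136) in the Xist fits, and the spread within the Maf conditional KO mice was wider than the whole range of the Maf flox/flox mice. Selenof, an endoplasmic reticulum protein (chr3:144570304-144597680, plus strand), ranged from 103.9 to 120.9 CPM in Maf flox/flox and from 113.2 to 137.7 CPM in Maf conditional KO mice, with a log2 fold change of 0.14 (SE 0.0888) and of 0.17 (SE 0.0685) and 0.15 (SE 0.0852) in the Xist fits.

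Selenop encodes selenoprotein P, which is secreted and carries selenium between organs (chr15:3268547-3280508, plus strand). It was 428.3, 479.4, 941.6, and 1020 CPM in Maf flox/flox mice 1 to 4 and 970.3, 420.7, 427.1, and 364.4 CPM in Maf conditional KO mice 1 to 4. The 3 mice with low Xist counts, from both genotypes, held the 3 highest values. The genotypes overlapped, and the log2 fold change of -0.39 had an SE of 0.435, against -0.19 (SE 0.0874) with Xist as a covariate. Among the 5 mice with high Xist counts, the 3 Maf conditional KO mice lay at 364.4 to 427.1 CPM and the 2 Maf flox/flox mice at 428.3 and 479.4 CPM, a log2 fold change of -0.17 (SE 0.0931). Exons of Ccdc152 on the opposite strand cover 15.4% of the exonic bases of Selenop, and reads there were not counted for either gene.

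Dio1 encodes type 1 iodothyronine deiodinase, which turns thyroxine into the active thyroid hormone (chr4:107291465-107307169, minus strand). Its level was 43.2, 52.8, 19, and 11.8 CPM in Maf flox/flox mice 1 to 4 and 18.3, 55.8, 54.5, and 51.7 CPM in Maf conditional KO mice 1 to 4. The 3 mice with low Xist counts, which were the 3 highest for Selenop, were the 3 lowest for Dio1. The log2 fold change was 0.50 (SE 0.573), and it was 0.27 (SE 0.174) with Xist as a covariate and 0.17 (SE 0.0992) among the 5 mice with high Xist counts.

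Sephs2 encodes selenophosphate synthetase 2, which makes the selenium donor for selenocysteine and is itself a selenoprotein (chr7:127271879-127274055, minus strand). It was 129.2, 135.2, 178.5, and 176.9 CPM in Maf flox/flox mice 1 to 4 and 207.1, 197.8, 165.1, and 160.4 CPM in Maf conditional KO mice 1 to 4. The groups overlapped when taken whole, with a log2 fold change of 0.24 (SE 0.131). Among the mice with high Xist counts, however, the 3 Maf conditional KO mice at 160.4 to 197.8 CPM lay above the 2 Maf flox/flox mice at 129.2 and 135.2 CPM. Among those with low counts, the only Maf conditional KO mouse at 207.1 CPM lay above the 2 Maf flox/flox mice at 176.9 and 178.5 CPM. The log2 fold change was 0.31 (SE 0.0831) with Xist as a covariate and 0.40 (SE 0.0968) among the 5 mice with high Xist counts. Exons of Gm44729 on the opposite strand cover 36.4% of the exonic bases of Sephs2, where reads were not counted.

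Taking the mice of high and of low Xist counts apart, 3 members had every Maf conditional KO mouse below the Maf flox/flox mice in both sets (Gpx3, Gpx1, and Msrb1), and 2 had it above in both (Sephs2 and Selenof). Over all tested genes the same pattern occurred in 11.1% (below) and 9.5% (above). The set with low counts holds a single Maf conditional KO mouse. With Xist as a covariate, 3 members passed the threshold as lower (Gpx3, Gpx1, and Msrb1), beside 4.23% of all tested genes, and 1 as higher (Sephs2), beside 2.59%. Among the 5 mice with high Xist counts the same numbers were 3 lower, beside 2.22% of the genes tested there, and 1 higher, beside 1.53%.

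**Figure D2:**
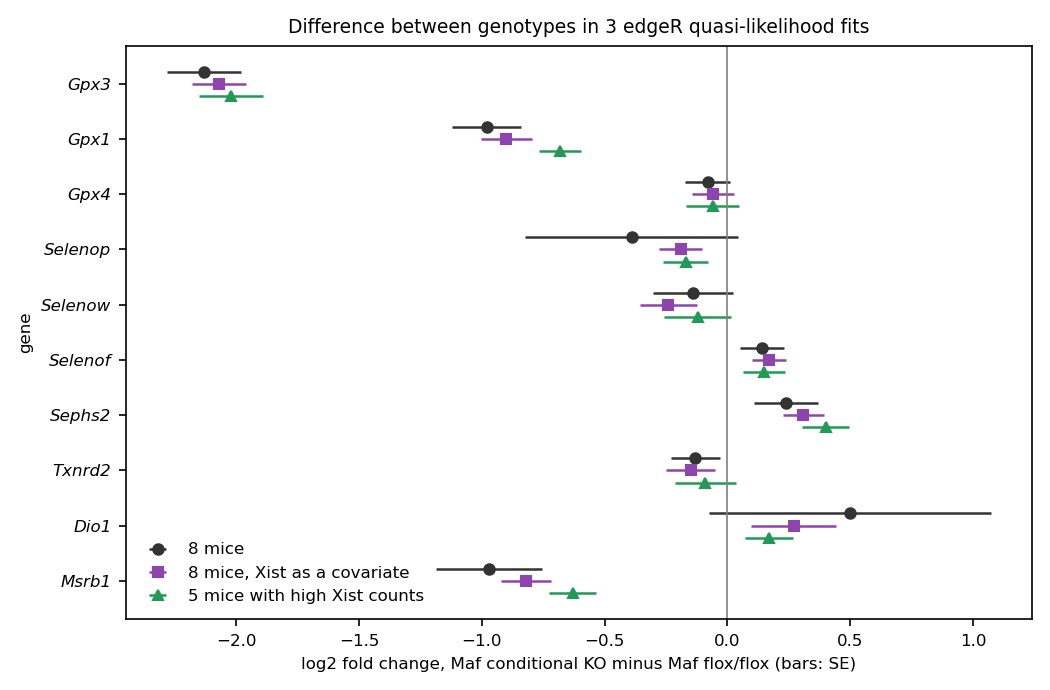
The horizontal axis is the log2 fold change of each member, Maf conditional KO minus Maf flox/flox, with its SE as a bar, in the fit of all 8 mice (black), with Xist as a covariate (purple), and among the 5 mice with high Xist counts (green). Gpx3 stays near -2 in all 3 fits, while the bars of Selenop and Dio1 are widest in the fit of all mice (SE 0.435 and 0.573).

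To set the levels of the members against each other, CPM was divided by the merged exon length of each gene in kb. On this scale Gpx3 led the 24 selenoprotein genes in both genotypes, with 7005 CPM per kb in Maf flox/flox and 1598 CPM per kb in Maf conditional KO mice. Gpx1 followed at 553.1 and 280.0 CPM per kb, Selenop at 252.4 and 192.0, and Sephs2 at 71.2 and 83.9 CPM per kb. The lowest and highest mice of Gpx3, Gpx1, Selenop, and Sephs2 did not overlap with the next in order in Maf flox/flox kidneys, except that Sephs2 overlapped with Msrb1. In Maf conditional KO kidneys Gpx1 overlapped with Selenop.

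Msrb1 took place 5 in Maf flox/flox kidneys at 47.1 CPM per kb, with a range that overlapped its neighbours, and place 8 in Maf conditional KO kidneys at 24 CPM per kb. Selenow and Gpx4 lay at 32.6 and 30.2 CPM per kb in Maf flox/flox mice and overlapped. Selenof at 19.4 and Dio1 at 16.1 CPM per kb overlapped with their neighbours as well, and Txnrd2 was the lowest member, at 4.15 CPM per kb. Dividing by the longest transcript in place of the merged exons kept the first 4 members and the last 2 in place and changed the order of the 4 between them.

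**Figure D3:**
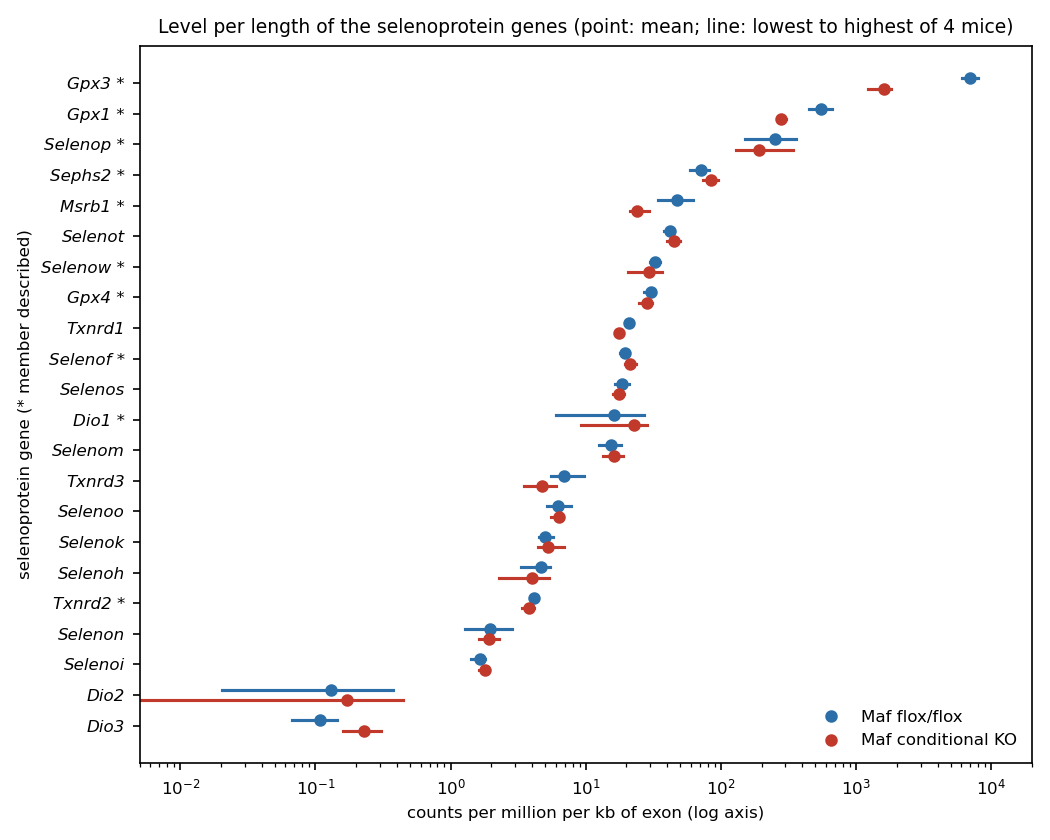
Points are the mean CPM per kb of exon (horizontal log axis) of the selenoprotein genes in Maf flox/flox (blue) and Maf conditional KO (red) kidneys, and lines run from the lowest to the highest of 4 mice. Gpx3 stands above all others in both genotypes, at 7005 and 1598. Gpx2 and Selenov are left out because a group is at 0, and the line of Dio2 in Maf conditional KO mice runs to a mouse at 0 beyond the left edge.

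The summed level of the 24 genes was 8154 ± 1181 CPM per kb in Maf flox/flox and 2405 ± 348.2 CPM per kb in Maf conditional KO mice (SD, n = 4 each). Gpx3 made up 86% ± 0.959 of this sum in Maf flox/flox mice and 66.3% ± 2.72 in Maf conditional KO mice. Without Gpx3, the sums were 1149 ± 242.5 and 806.9 ± 103.5 CPM per kb. With Gpx1 and Selenop left out as well, they were 327.1 to 358.7 and 322.3 to 355.4 CPM per kb, so that the remaining 21 genes together covered nearly the same range in both genotypes. Single genes in this sum differed in both directions. Msrb1 averaged 47.1 CPM per kb in Maf flox/flox and 24 in Maf conditional KO mice, and Sephs2 71.2 and 83.9.

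Weighting each gene by its annotated selenocysteine codons changes the balance, since Selenop has 10 of them. Gpx3 transcripts then held 68% ± 5.02 of the selenocysteine codons in Maf flox/flox mice and 39.7% ± 6.2 in Maf conditional KO mice. Selenop transcripts held 23.4% ± 5.53 and 44.6% ± 9.32. On merged exon lengths, Selenop held more of these codons than Gpx3 in Maf conditional KO mice 1 and 4, with 58.4% and 41.3% against 31.1% and 39.4%. It held fewer in the other 6 mice. In Maf conditional KO mice 2 and 3 the shares were 38.2% and 40.5% for Selenop against 44.9% and 43.5% for Gpx3. Reads were not counted on 15.4% of the exonic bases of Selenop, which its length includes, so its level per kb is understated. Which gene held more in mice 2 and 3 can therefore depend on the length used. These shares count codons in RNA and are not a measure of translation.

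**Figure D4:**
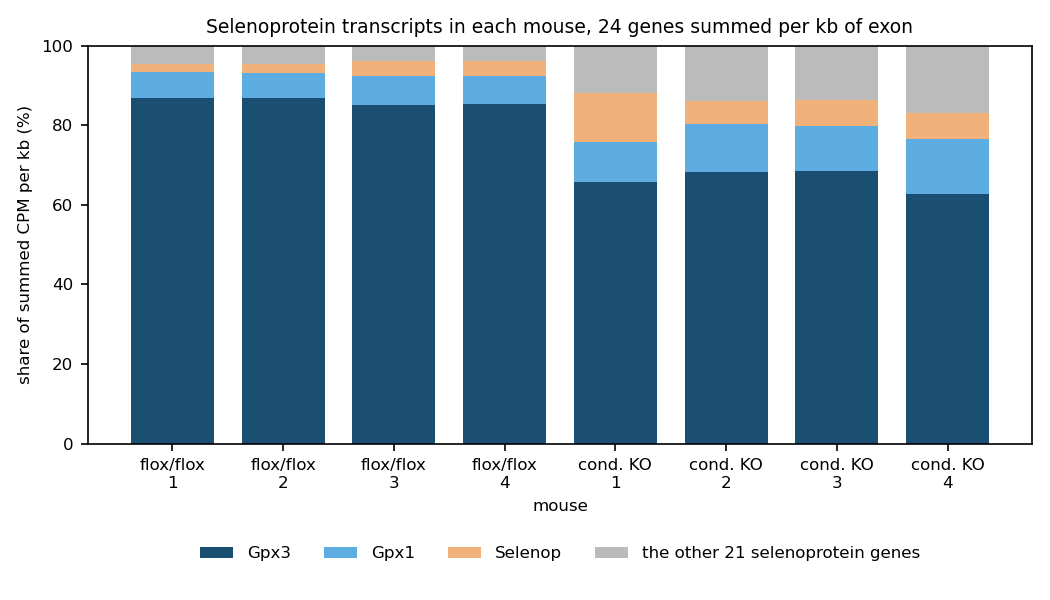
Each bar is 1 mouse, and its parts are the percent of the summed CPM per kb of 24 selenoprotein genes that came from Gpx3 (dark blue), Gpx1 (light blue), Selenop (orange), and the other selenoprotein genes (grey). Gpx3 fills 85.1% to 86.9% of each Maf flox/flox bar and 62.7% to 68.5% of each Maf conditional KO bar.

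The 14 selenoprotein genes outside the members were tested as far as they were expressed. Of the 11 that passed the filter on low counts, 0 passed edgeR's quasi-likelihood test, and 2 had an unadjusted P under 0.05, both lower. They were Txnrd1, the cytosolic thioredoxin reductase, with a log2 fold change of -0.23 (SE 0.0729, adjusted P = 0.156, edgeR), and Txnrd3, with -0.55 (SE 0.203, adjusted P = 0.251, edgeR). Txnrd1 was 122.5 to 130.4 CPM in Maf conditional KO and 141.7 to 152.5 CPM in Maf flox/flox mice, without overlap. With Xist as a covariate Txnrd1 passed as lower (-0.23, SE 0.0667, adjusted P = 0.0471, edgeR). Among the 5 mice with high Xist counts it did not (-0.23, SE 0.0808, adjusted P = 0.169, edgeR). Selenot, the most abundant of this list per length, had a log2 fold change of 0.10 (SE 0.0922). Gpx2, Dio3, and Selenov did not pass the filter, and Selenov had 0 counts in all mice.

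Selenocysteine is built on its own tRNA and inserted by a dedicated set of factors. Of 11 genes for this route, 0 passed the test by edgeR, and 3 had an unadjusted P under 0.05, all lower. Trnau1ap, a tRNA-selenocysteine associated protein, had a log2 fold change of -0.49 (SE 0.118, adjusted P = 0.0589, edgeR), with 12.9 to 17.9 CPM in Maf conditional KO and 19.4 to 22.7 CPM in Maf flox/flox mice. Eif4a3 had -0.37 (SE 0.114), and Eefsec, the elongation factor that delivers the tRNA, had -0.31 (SE 0.127). With Xist as a covariate Trnau1ap (-0.53, adjusted P = 0.00586, edgeR) and Eif4a3 (-0.39, adjusted P = 0.0441, edgeR) passed as lower. Among the 5 mice with high Xist counts neither passed, at -0.44 (adjusted P = 0.0772, edgeR) and -0.42 (adjusted P = 0.147, edgeR). Secisbp2, which binds the SECIS element, was at 0.03 (SE 0.109), Sepsecs, which completes selenocysteine on the tRNA, at -0.04 (SE 0.0869), and Pstk at 0.04 (SE 0.169).

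Of 8 genes for selenium and selenoprotein P handling, 0 passed the test by edgeR, and 1 in each direction had an unadjusted P under 0.05. With Xist as a covariate 4 passed, Selenbp1 and Cbs as lower and Scly and Inmt as higher. Scly, the selenocysteine lyase that recovers selenium, was 91.4 to 111.4 CPM in Maf conditional KO and 79.6 to 84.7 CPM in Maf flox/flox mice, with a log2 fold change of 0.30 (SE 0.0826, adjusted P = 0.102, edgeR), and 0.28 (SE 0.0734, adjusted P = 0.0311) with the covariate. Selenbp1, a selenium-binding protein, was 113.2 to 123.2 and 133.5 to 177.7 CPM, with -0.41 (SE 0.106, adjusted P = 0.0757, edgeR) and, with the covariate, -0.36 (SE 0.0766, adjusted P = 0.009). Lrp2 encodes megalin, the receptor that takes up filtered selenoprotein P in the proximal tubule, and had a log2 fold change of -0.17 (SE 0.164). Its lowest value, 4466 CPM, was in Maf conditional KO mouse 1, and the other 7 mice lay between 7165 and 8602 CPM. Lrp8, a selenoprotein P receptor of other tissues, stayed below 7 CPM in all mice. Cbs was high in the 3 mice with low Xist counts, at 260.0, 273.0, and 334.3 CPM, and 44.5 to 88.7 CPM in the other 5. Its log2 fold change was -0.87 (SE 0.796) in all mice and -0.61 (SE 0.15, adjusted P = 0.0466, edgeR) with the covariate. Inmt, a methyltransferase that also methylates selenium compounds, was highest in the same 3 mice, and had 0.30 (SE 0.564) in all mice and 0.64 (SE 0.131, adjusted P = 0.0149, edgeR) with the covariate.

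Of 8 relatives that lack selenocysteine, 7 were tested, with log2 fold changes from -0.16 (Msrb2) to 0.12 (Msrb3) and 0 past the test by edgeR, and 0 had an unadjusted P under 0.05. Of 8 genes that supply glutathione and thioredoxin, the substrates of the peroxidases and reductases, 0 passed the test by edgeR, 1 had an unadjusted P under 0.05, and all 8 log2 fold changes were negative, with a median of -0.08. Gsr, glutathione reductase, had -0.36 (SE 0.12, adjusted P = 0.19, edgeR) and passed as lower with Xist as a covariate (-0.30, SE 0.0852, adjusted P = 0.0446, edgeR). Gclc, a subunit of the rate-limiting enzyme of glutathione synthesis, was 235.8 to 269.5 CPM in the Maf conditional KO mice, 197.9 and 240.2 CPM in Maf flox/flox mice 1 and 2, and 441.1 and 640.1 CPM in mice 3 and 4.

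Among 6 genes of thyroid hormone entry and action, listed because Dio1 acts on the same hormone, 1 passed the test. Slc16a10, a transporter of aromatic amino acids and thyroid hormone, fell in Maf conditional KO kidneys by 1.02 on the log2 scale (SE 0.112, adjusted P = 0.000373, edgeR's quasi-likelihood test). It was 33.7, 37.4, 35.7, and 31 CPM in the Maf conditional KO mice and 61.7 to 84.7 CPM in the Maf flox/flox mice, and the log2 fold change with Xist as a covariate was -0.98. Thra and Thrb, the thyroid hormone receptors, had log2 fold changes of 0.13 (SE 0.093) and 0.18 (SE 0.116) and did not pass the test.

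Over the 6 lists, 51 of 55 genes were tested and 1 fell, Slc16a10, beside the 1.58% of all genes given above, while 0 rose. At an unadjusted P under 0.05 there were 10 lower and 1 higher of the 51, beside 7.44% and 6.58% of all tested genes, and the median log2 fold change was -0.04. With Xist as a covariate 8 were lower, among them Txnrd1, Trnau1ap, Eif4a3, Selenbp1, Cbs, Gsr, and Slc16a10, and 2 higher, Scly and Inmt, beside 4.23% and 2.59% of all genes. Among the 5 mice with high Xist counts 2 were lower, Cbs and Slc16a10, and 2 higher, Scly and Inmt, beside 2.22% and 1.53%.

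**Figure D5:**
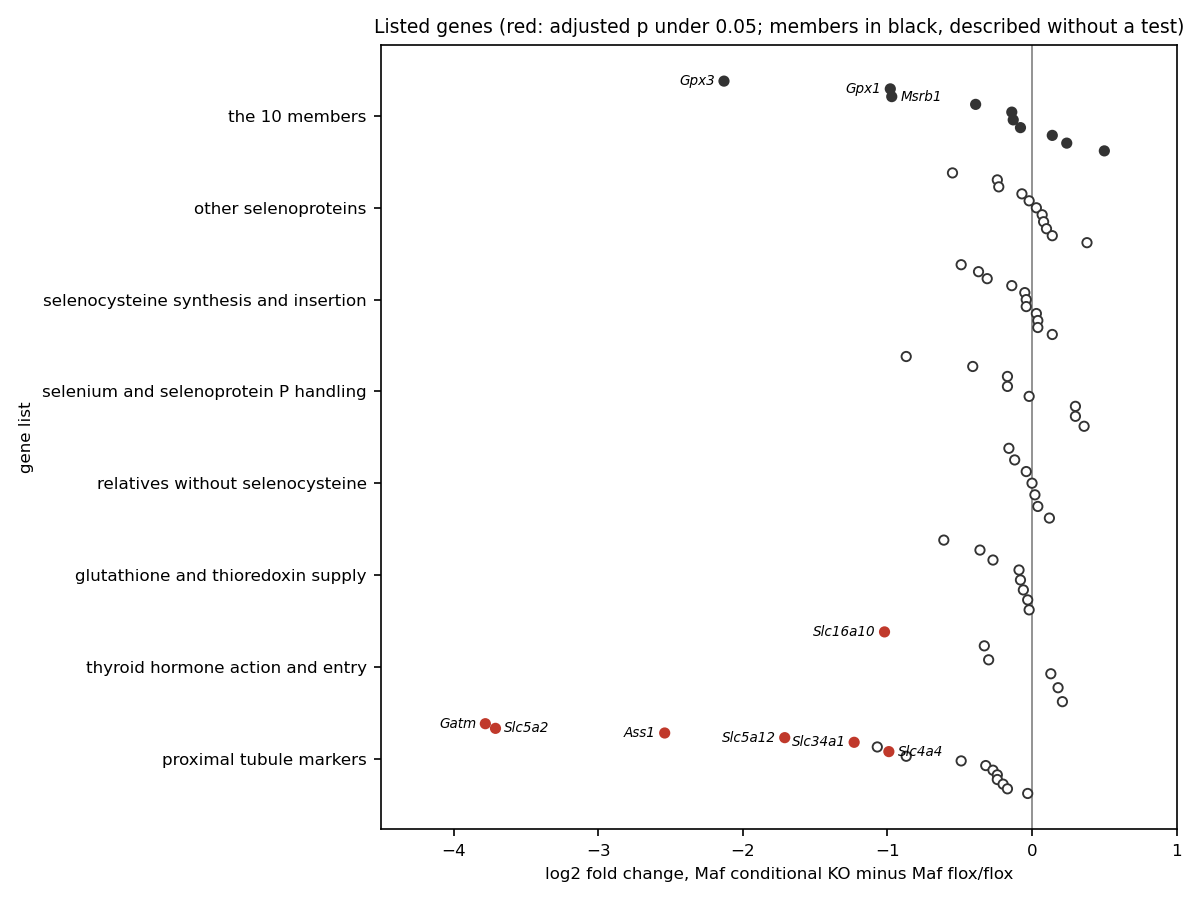
Points are genes, placed by their log2 fold change (horizontal axis, Maf conditional KO minus Maf flox/flox) in the rows of the 10 members, the 6 lists, and the proximal tubule markers. Red points passed an adjusted P under 0.05 in edgeR's quasi-likelihood test, which are Slc16a10 and 6 proximal tubule markers. Members are black and are shown without a test, and Gpx3 lies at -2.13.

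The genes whose levels followed Gpx3 most closely across the 8 mice were sought among 17474 tested genes of at least 1 CPM on average. Each gene's log2 CPM was centred on its mean, and the root mean square difference from Gpx3 was taken. The nearest were Aspa (0.18), Hmcn2 (0.18), Slc26a1 (0.19), Gm5424 (0.22), and Slc30a2 (0.22). Aspa, aspartoacylase, was 66.2 to 81.6 CPM in Maf flox/flox and 17.9 to 22.4 CPM in Maf conditional KO mice, and Slc26a1, a sulfate transporter, was 106.0 to 160.1 and 26.6 to 40.1 CPM. Slc30a2, a zinc transporter, was 25.6 to 43.6 and 6.71 to 12.6 CPM, and Hmcn2 was 12.9 to 18.1 and 2.98 to 5.24 CPM. Gm5424 shares 82.6% of its 36-base sequences with Ass1, a proximal tubule marker that also fell, so that its counts cannot be separated from those of Ass1 with certainty. With z scores in place of centred values, Aspa was again the nearest and the next 4 were Ass1, Fam151a, Lgmn, and Cryl1, so that 1 of 5 genes was shared. These lists describe likeness over 8 mice in 2 groups that differ in Gpx3 by choice of the gene.

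Promoters of the members were searched for 3 motifs, each on both strands, from 250 bases before to 50 bases after the RefSeq starts (GRCm38.p6). The motifs included TGCTGAC, a shortened Maf recognition element, and TGACTCA, the core of the TRE-type Maf recognition element, which AP-1 factors also bind. TGACNNNGC, the core of the antioxidant response element, was searched as well, and since all hold TGAC, a stretch may match more than 1. The 10 members had 15 such windows, of which 0 held any of the 3. Of 27025 genes in the table, 5.28% held TGCTGAC, 5.95% TGACTCA, and 14% TGACNNNGC in at least 1 window. These letters are absent from these windows, and other distances were not searched.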

How the data were processed

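RNA-Seq of whole kidneys was deposited by the authors as raw read counts per gene name, made with featureCounts 2.0.1 (file header) on exons of the Ensembl release 102 annotation of GRCm38, together with each gene's merged exon length in bases. The labels' processing notes name Subread 2.0.2 and edgeR 3.36.0. The aligner is not given in the sources used here. By the command in the header, both reads of a pair were counted, strand was not used although the library kit is directional, and there were no counts for reads that map to several places or to exons of more than 1 gene. All sample columns were matched to the labels, and 0 columns were left unused. The paper's own route with CLC Genomics Workbench was not repeated, because it starts from reads.

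Genes were kept by filterByExpr (20149 of 55367), scaled by TMM (factors 0.857 to 1.11), and compared by edgeR's robust quasi-likelihood test over all genes (R 4.3.3, edgeR 4.0.16, limma 3.58.1), without covariates, with Benjamini-Hochberg adjustment at 0.05. SEs were derived from the log2 fold change and the test's F (its size over the root of F). CPM is TMM-scaled, and log2 CPM used a prior count of 2. Each labelled replicate was taken as 1 mouse, and SEs and P values measure only the spread between these samples. The closest 2 mice of a genotype had a chi-square of 5.48 per degree of freedom, above sampling noise, so all 8 were kept as separate. Blank gene rows numbered 0.

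The members, lists, and alternatives were chosen with earlier results of these data known. The genes named were the 10 members, Maf, the called genes of the 6 lists with at least 2 uncalled ones each, the marker genes shown, and the 5 genes nearest to Gpx3. Cbs, Gclc, Inmt, Lrp8, Slc13a3, and Slc22a8 were named after their values were seen. Codon sequences are from GENCODE M21 transcripts (GRCm38), and promoters are from RefSeq starts on GRCm38.p6. Scripts were tested on simulated counts. The alternatives comprised DESeq2 1.42.0, edgeR's exact test (at least 5 counts in total), limma-trend on quantile-normalized values, factors by RLE or the upper quartile, at least 1 count in any mouse, at least 10 counts in every mouse, a replicate block, Xist as a covariate, the 5 mice with high Xist, no mitochondrial or ribosomal RNA genes, and each mouse left out. Figures used matplotlib 3.10.9 in Python 3.11.15.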

Additional observations from a re-analysis of the deposited data

Results flagged for a closer look

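For the members, Maf, Xist, and the other tested genes described with values, the highest and the lowest of the 4 mice of a group were compared with the others by Dixon's ratio. Of 104 groups, 11 passed its 95% critical value, which chance does in about 1 in 20. The screen includes genes that were named after their values were seen (Cbs, Gclc, Inmt, Lrp8, Slc13a3, and Slc22a8), so its count cannot be read against that share. Of these 11, 7 concern Maf conditional KO mouse 1. In this mouse Selenop reached 970.3 CPM (others 364.4 to 427.1, ratio 0.896) and Dio1 18.3 CPM (others 51.7 to 55.8, ratio 0.889). Cbs was at 260.0 CPM (others 44.5 to 61.4) and Inmt at 598.1 CPM (others 225.5 to 227.9), while Lrp2 was at 4466 CPM (others 7183 to 7710), Slc13a3 at 193.3 CPM (others 359.8 to 385.6), and Xist at 0.102 CPM (others 953.9 to 1007). The same mouse had the highest mitochondrial share of all mice (32.3%). The parts of Xist and of the mitochondrial share were not tested.

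The other 4 are single genes in other mice. Eif4a3 was at 18.9 CPM in Maf conditional KO mouse 4 (others 15.5 to 15.9), and Pstk at 6.92 CPM in Maf flox/flox mouse 4 (others 9.62 to 10.1). Lrp2 was at 8602 CPM in Maf flox/flox mouse 2 (others 7165 to 7292), and Kdr at 120.5 CPM in Maf flox/flox mouse 3 (others 105.2 to 107.3).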

How the results depend on the processing

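Over 19 alternatives, the log2 fold change of Gpx3 ran from -2.20 to -1.98, that of Gpx1 from -1.07 to -0.68, and that of Msrb1 from -1.10 to -0.63. The other members kept their sign under all of these, except that Selenow reached 0.00 with a mouse left out. Msrb1, not past the threshold in the main comparison, was past it in 6 of the 19 (DESeq2, the exact test, both Xist fits, and without Maf flox/flox mouse 1 or 2), and Sephs2 in 2 (both Xist fits). The smallest difference of Gpx1 (-0.68) was that among the 5 mice with high Xist. Maf ran from -4.41 to -3.80 and missed the threshold among these mice (-3.87, adjusted P = 0.108, edgeR) and with the replicate block (-4.28, adjusted P = 0.0516, edgeR). The number of genes called, 436 in the main comparison, was 886 with DESeq2, 1374 with Xist as a covariate, 789 among the mice with high Xist, 600 with at least 1 count in any mouse, 596 with the exact test, and 239 to 452 with a mouse left out, the lowest being 239 without Maf conditional KO mouse 3, 256 without mouse 2, and 285 without Maf flox/flox mouse 3. Upper-quartile factors moved the higher calls from 118 of 436 to 152 of 418. Listed genes called lower, 1 in the main comparison, numbered 5 with DESeq2, 3 with at least 1 count in any mouse, 8 with Xist as a covariate, 2 among the mice with high Xist, and 1 to 2 with a mouse left out (Trnau1ap was added without Maf conditional KO mouse 4 and Selenbp1 without Maf flox/flox mouse 1). Listed genes called higher, 0 in the main comparison, numbered 1 with DESeq2 (Scly), 2 with Xist as a covariate and 2 among the mice with high Xist (Scly and Inmt), and 0 to 1 with a mouse left out (Scly without Maf conditional KO mouse 1). The cause of these moves was not tested.

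Deviations of same-numbered mice from their genotype means correlated at -0.373, 0.152, -0.11, and -0.331. The mice numbered 1, 3, and 4 differ in Xist counts between the genotypes, so these values cannot show whether the numbers pair the mice. With the replicate number as a block, 129 genes were called, and Gpx1 (-0.96) missed the threshold. Each member had at least 202 reads per mouse.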
